A study of Mus musculus with 2 samples.

Results

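The genes described here are 8 genes through which astrocytes handle water, potassium, bicarbonate and cell-to-cell coupling: Aqp4, Kcnj10, Kcnj16, Gja1, Gjb6, Atp1b2, Slc4a4 and Dtna. They were chosen by gene symbol among the 32285 genes of the deposited tables, and each symbol matched 1 row. The rule itself uses no measured value, but the genes were picked with earlier results of these data known. Levels were compared across cell types and between a Fam69c knockout (KO) library and a wild-type (WT) library made by single-cell RNA sequencing of mouse cortex.

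Both libraries came from male mice aged 4 months, whose cortices were pooled by genotype, dissociated enzymatically, stained with the dead-cell dye 7-AAD and sorted before droplet capture. The labels name 7 mice without saying whether that is the number for each genotype. Fam69c is listed under its current symbol Dipk1c. The sources used here do not give the strain, the knockout allele or its deleted part. There was 1 library per genotype, so genotype and pool cannot be told apart, no test was made, and every interval below is an exact 95% interval that covers counting error only.

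Astrocytes wrap blood vessels with endfeet, and their membranes there are crowded with the water channel aquaporin-4 and the inward rectifier Kir4.1, held in place by a dystrophin-associated scaffold. Potassium released by active neurons is taken up by Kir4.1 channels and by the sodium and potassium pump, and is spread through the astrocyte network by gap junctions made of connexin 43 and connexin 30. Sodium bicarbonate cotransport buffers the pH shifts that go with this uptake.

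Raw counts of unique molecular identifiers (UMIs, 1 for each captured transcript 3′ end) were summed over the cells of a type and are given as UMIs per 1000000 UMIs of that type (CPM). The KO library held 9182 barcodes and 75473717 UMIs, and the WT library held 7150 barcodes and 57166105 UMIs. After filters 7032 KO and 4940 WT cells were kept, with median depths of 8449 UMIs in KO and 8580 UMIs in WT cells. Cells were typed by counting how many of 8 markers of each of 20 types they contained, and none of the 8 genes described here was a marker. Astrocyte-like cells numbered 4291 in KO and 2691 in WT, or 61.0% of the kept KO and 54.5% of the kept WT cells. The tissue is labelled cortex, yet only 0 KO and 2 WT cells were neuron-like, while 426 KO and 236 WT cells were neuroblast-like. A cluster that its markers left unnamed, led by Meg3, Adarb2, Rian and Ndnf and with the neuronal genes Gad1 and Reln among its top 10, held 99 KO and 42 WT cells at median depths of 1466 UMIs in KO and 2693.5 UMIs in WT, so the low number of neuron-like cells depends on the marker rule. The libraries shared 10 barcode sequences among kept cells. Dipk1c itself was read at 32.9 CPM in KO and 57.1 CPM in WT astrocyte-like cells, a KO over WT ratio of 0.577 (0.534 to 0.623), and reads outside a deleted part would not check the label.

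Promoters are shown for the 3 genes on which the results turn. By CPM in astrocyte-like cells, Kcnj10 was the gene furthest below the WT library and Gjb6 the 1 gene above it. Gja1, the connexin partner of Gjb6, was close to WT. Each promoter is the 250 bases before a RefSeq transcript start on the GRCm38.p6 build, 5′ to 3′ on the gene's own strand. The windows are chr1:172340960-172341209 on the plus strand for Kcnj10, chr14:57133612-57133861 on the minus strand for Gjb6 and chr10:56377050-56377299 on the plus strand for Gja1. Capitals mark the GC box and the nuclear factor I core, on either strand.
Kcnj10: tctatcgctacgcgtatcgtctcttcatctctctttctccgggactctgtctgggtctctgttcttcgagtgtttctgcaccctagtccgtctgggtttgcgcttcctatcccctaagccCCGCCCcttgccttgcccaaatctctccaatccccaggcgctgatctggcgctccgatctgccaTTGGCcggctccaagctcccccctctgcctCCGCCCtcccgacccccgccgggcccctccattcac
Gjb6: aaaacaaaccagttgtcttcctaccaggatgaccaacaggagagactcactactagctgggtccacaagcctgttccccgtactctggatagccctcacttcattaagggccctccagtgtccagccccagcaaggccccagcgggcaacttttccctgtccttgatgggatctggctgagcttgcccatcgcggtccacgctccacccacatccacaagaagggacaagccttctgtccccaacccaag
Gja1: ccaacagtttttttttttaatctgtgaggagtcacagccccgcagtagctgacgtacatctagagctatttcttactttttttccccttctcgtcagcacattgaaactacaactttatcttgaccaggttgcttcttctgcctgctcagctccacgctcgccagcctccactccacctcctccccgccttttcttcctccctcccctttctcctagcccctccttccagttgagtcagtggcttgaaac

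The window of Kcnj10 was 62.0% G and C, against 56.8% for Gjb6 and 50% for Gja1. On both strands, 6 motifs were searched: the GC box GGGCGG, the nuclear factor I core TTGGC, the SOX core ACAAT, the TATA box TATAAA, the cyclic AMP response element TGACGTCA and the STAT site TTCNNNGAA. Kcnj10 held 2 GC boxes and 1 TTGGC, none of which overlapped, and neither Gjb6 nor Gja1 held any of the 6. These motifs were not confined to Kcnj10. The Slc4a4 window before base 88887260 held 1 GC box and 2 TTGGC, as did the Kcnj16 window before base 111023860. The other windows of Slc4a4 and Kcnj16 held no GC box. Of 32851 RefSeq promoter windows of the same length, 32.7% held the GC box, 41.5% TTGGC, 27.7% ACAAT, 12.4% TATAAA, 1.55% TGACGTCA and 7.02% TTCNNNGAA. A match is a description of the letters and not a bound site, and windows without a match may hold sites elsewhere. Promoter windows were read for 5 of the 8 genes, and chromosome 18, which holds Aqp4 and Dtna, was left out of this step.

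All 8 genes were higher in astrocyte-like cells than in the other typed cells pooled, in both libraries, but by very different margins. The fold over the other cells was 46.5 in KO and 58.3 in WT for Slc4a4, and 43.7 in KO and 29.8 in WT for Kcnj16. Aqp4 stood 38.0-fold higher in KO and 43.0-fold in WT, and Atp1b2 34.9-fold in KO and 38.5-fold in WT. The connexin genes followed, Gja1 with 27.6-fold in KO and 26.1-fold in WT and Gjb6 with 22.2-fold in KO and 20.8-fold in WT. Dtna was 10.0-fold higher in KO and 10.3-fold in WT. Kcnj10 was apart from these, at 1.40-fold in KO (1.34 to 1.46) and 1.58-fold in WT (1.51 to 1.64). The median log2 fold of the 8 genes was 4.95 in KO and 4.80 in WT.

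**Figure D1:**
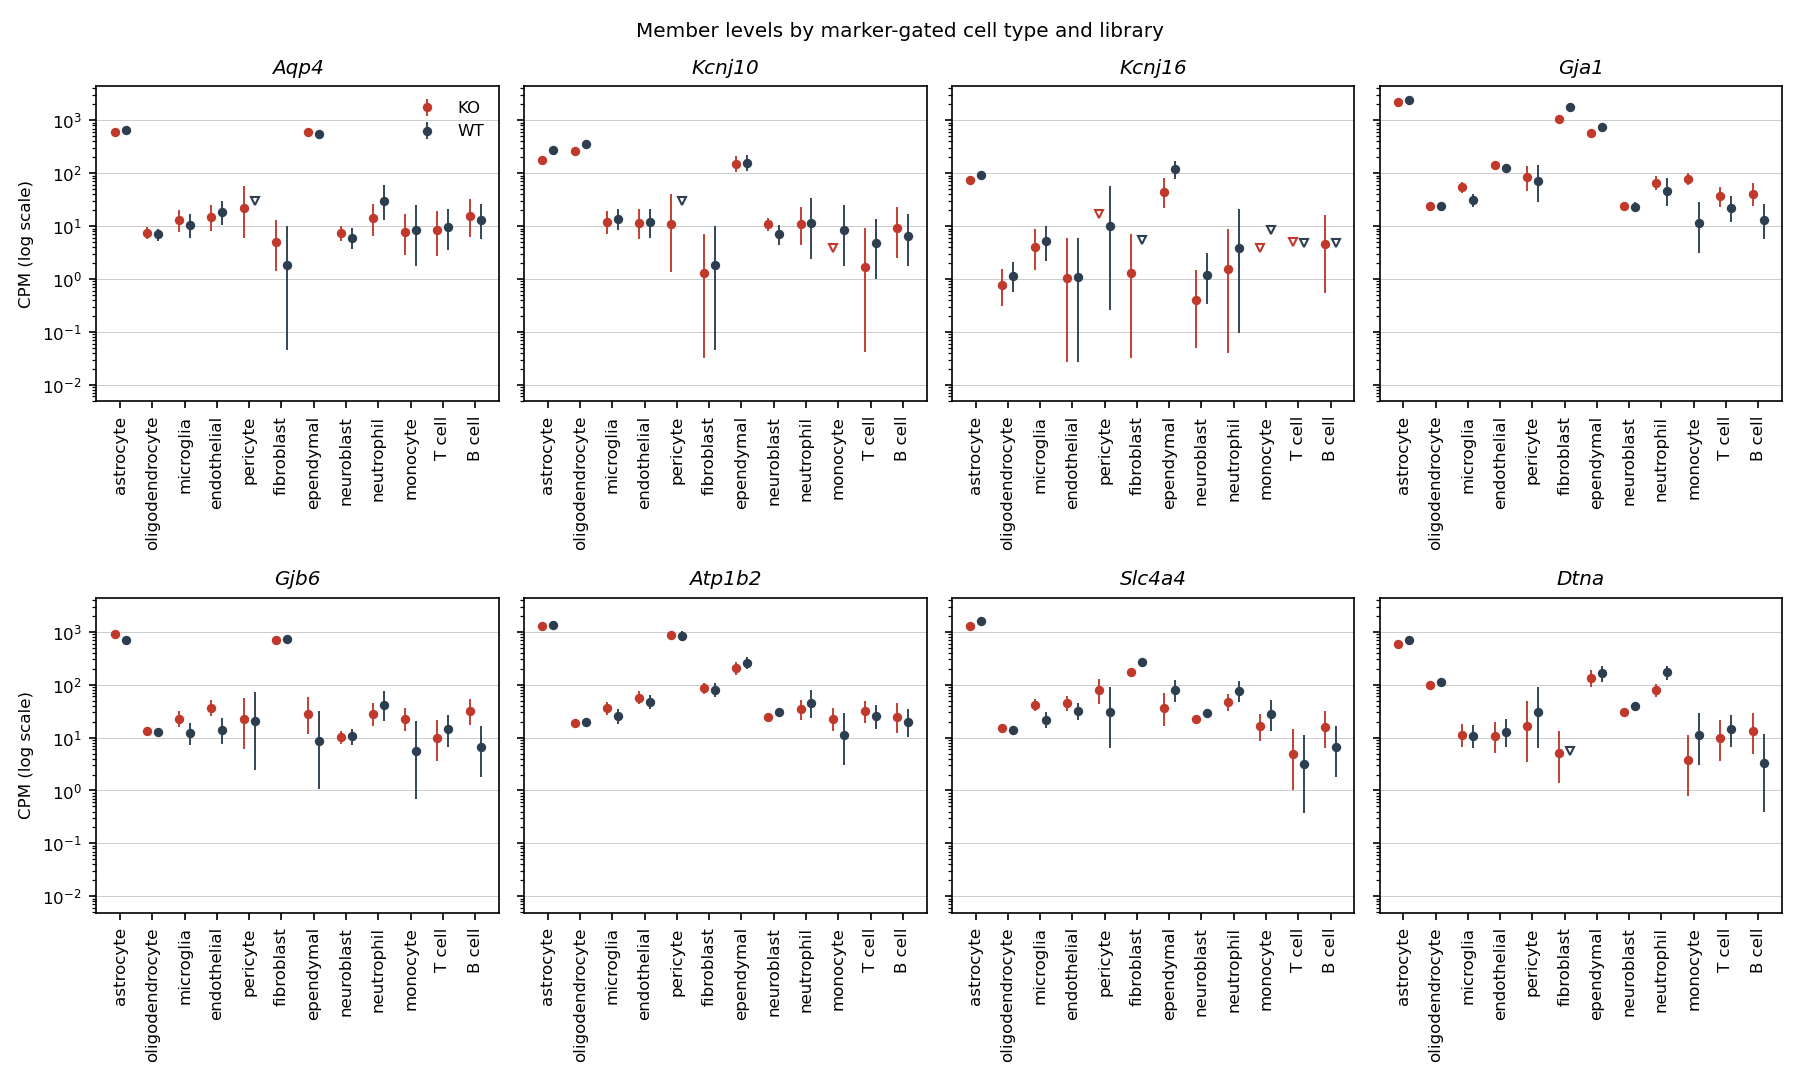
Level of each gene in CPM (log axis) in the 12 cell types with at least 20 cells in each library, KO red on the left and WT dark blue on the right of each pair, with exact Poisson 95% intervals; open triangles are types with 0 UMIs, drawn at the level that 3 UMIs would make. Astrocyte-like cells are high for all 8 genes; further high points are Kcnj10 in oligodendrocyte-like, Gja1 and Gjb6 in fibroblast-like, Atp1b2 in pericyte-like and Aqp4 in ependymal-like cells.

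Aqp4, which codes for the endfoot water channel, lies on the minus strand of chromosome 18 from base 15389496 to 15410982 (GRCm38, as are all gene positions here). Astrocyte-like cells had 598 CPM in KO and 656 CPM in WT. Ependymal-like cells, the ciliated lining of the ventricles, had 598 CPM in KO and 555 CPM in WT from 21 KO and 22 WT cells, so that these cell types did not differ beyond counting error in either library. Every other type with at least 20 cells in each library lay between 5.10 and 22.3 CPM in KO and between 0 and 30.3 CPM in WT. Astrocyte-like cells held 96.9% of all Aqp4 UMIs in KO and 96.1% in WT. An antisense gene, AC133525.2, overlaps Aqp4, and the sources used here do not say whether the counting used strand.

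Dtna codes for alpha-dystrobrevin, a part of the scaffold that links aquaporin-4 and Kir4.1 to dystrophin, and spans chromosome 18 from base 23415135 to 23659715 on the plus strand, where the antisense gene Gm47898 overlaps it. Its level was 587 CPM in KO and 708 CPM in WT astrocyte-like cells. Ependymal-like cells had 134 CPM in KO and 163 CPM in WT, and oligodendrocyte-like cells had 100 CPM in KO and 111 CPM in WT. Neutrophil-like cells had 79.5 CPM in KO and 171 CPM in WT, spread over 23 of 100 KO and 14 of 40 WT cells, with at most 6 UMIs in a KO and 10 UMIs in a WT cell. Their WT level was second after astrocyte-like cells, but its interval overlapped that of ependymal-like cells. T cell-like cells, whose median depth was 6083 UMIs in KO and 8142 UMIs in WT against 5324.5 in KO and 5086 in WT neutrophil-like cells, had 9.90 CPM of Dtna in KO and 14.2 CPM in WT. The same neutrophil-like cells held 9 Aqp4 UMIs beside 51 Dtna UMIs in KO, and 8 beside 45 in WT, whereas astrocyte-like cells held 0.983 Dtna UMIs for each Aqp4 UMI in KO and 1.08 in WT. NK cell-like cells had 36.9 CPM of Dtna in KO (10.0 to 94.4), an interval that overlaps the one of KO neutrophil-like cells (59.2 to 104), and 30.8 CPM in WT (8.40 to 78.9). The part of free RNA in these levels was not tested.

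Kcnj10 codes for the potassium channel Kir4.1 and lies on the plus strand of chromosome 1 from base 172341210 to 172374085. It was highest in oligodendrocyte-like cells, at 264 CPM in KO and 350 CPM in WT, and next in astrocyte-like cells, at 174 CPM in KO and 277 CPM in WT. Their intervals did not overlap in either library. Ependymal-like cells had 151 CPM in KO and 158 CPM in WT, and within counting error the KO value did not differ from the KO astrocyte-like level. Oligodendrocyte precursor-like cells had 222 CPM in KO and 156 CPM in WT, from only 8 KO and 10 WT cells. All other types with at least 20 cells in each library stayed at or below 12.1 CPM in KO and 13.5 CPM in WT. Of all Kcnj10 UMIs in kept cells, 69.1% lay in astrocyte-like and 26.2% in oligodendrocyte-like cells in KO, against 66.7% in astrocyte-like and 28.3% in oligodendrocyte-like cells in WT.

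Kcnj16 codes for Kir5.1, which joins Kir4.1 in mixed channels, and lies on the plus strand of chromosome 11 from base 110968033 to 111027968. Unlike Kcnj10 it was nearly absent from oligodendrocyte-like cells, with 7 UMIs in KO and 10 UMIs in WT, or 0.757 CPM in KO and 1.16 CPM in WT. Astrocyte-like cells had 75.5 CPM in KO and 92.9 CPM in WT. Ependymal-like cells had 44.7 CPM in KO and 119 CPM in WT, from 11 KO and 27 WT UMIs. Astrocyte-like cells held 2.31 Kcnj10 UMIs for each Kcnj16 UMI in KO (2.21 to 2.42) and 2.98 in WT (2.85 to 3.13).

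Atp1b2 codes for the beta subunit of the sodium and potassium pump that astrocytes use, and lies on the minus strand of chromosome 11 from base 69599736 to 69605942. Its level was 1295 CPM in KO and 1331 CPM in WT astrocyte-like cells. Pericyte-like cells, which line capillaries, had 875 CPM in KO and 839 CPM in WT, with the gene seen in 51 of 58 KO and 25 of 26 WT cells. Endothelial-like cells, which adjoin pericytes, had 57.0 CPM in KO and 47.3 CPM in WT. The pericyte-like cells had only 4 Aqp4 UMIs in KO and 0 in WT. Ependymal-like cells followed with 207 CPM in KO and 260 CPM in WT.

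Slc4a4 codes for a sodium bicarbonate cotransporter and spans chromosome 5 from base 88886818 to 89239653 on the plus strand. Astrocyte-like cells had 1294 CPM in KO and 1595 CPM in WT. Fibroblast-like cells came next with 176 CPM in KO and 265 CPM in WT, and no other type with at least 20 cells in each library was above 78.1 CPM in KO or 79.2 CPM in WT.

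Gja1, on the plus strand of chromosome 10 from base 56377330 to 56402513, codes for connexin 43. It had 2239 CPM in KO and 2388 CPM in WT astrocyte-like cells. Fibroblast-like cells, led by Mgp, Ccn3, Dcn and Ogn, had 1041 CPM in KO and 1766 CPM in WT from 70 KO and 30 WT cells. A single WT fibroblast-like cell held 134 of the 968 Gja1 UMIs, and the largest number in a KO cell was 71 of 816. Ependymal-like cells had 582 CPM in KO and 739 CPM in WT, and endothelial-like cells 144 CPM in KO and 125 CPM in WT. Monocyte-like cells had 78.7 CPM in KO and 11.2 CPM in WT, but 48 of the 62 KO UMIs lay in 1 cell.

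Gjb6, on the minus strand of chromosome 14 from base 57123303 to 57133611, codes for connexin 30. Astrocyte-like cells had 912 CPM in KO and 710 CPM in WT, and fibroblast-like cells had 693 CPM in KO and 724 CPM in WT, so the WT levels of these types did not differ beyond counting error. Neither Kcnj10 nor Aqp4 went with it there, with at most 4 UMIs of each in the fibroblast-like cells of a library. Ependymal-like cells, which held Gja1, had 7 Gjb6 UMIs in KO and 2 in WT.

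Each connexin was thus found with the other in astrocyte-like and fibroblast-like cells, and Gja1 without much Gjb6 in ependymal-like cells. Per Gja1 UMI there were 0.407 Gjb6 UMIs in KO astrocyte-like cells (0.402 to 0.413) and 0.297 in WT (0.292 to 0.302). In fibroblast-like cells the number was 0.665 in KO (0.596 to 0.743) and 0.410 in WT (0.364 to 0.461). In both types it was higher in the KO library, but through different genes. In astrocyte-like cells the KO over WT ratio of levels was 1.29 for Gjb6 and 0.938 for Gja1. In fibroblast-like cells it was 0.956 for Gjb6 and 0.589 for Gja1.

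Between the libraries, astrocyte-like cells showed lower Kcnj10 and higher Gjb6 in KO, with the other 6 genes closer to WT. Kcnj10 was read at 174 CPM in KO and 277 CPM in WT, a ratio of 0.629 (0.608 to 0.651), or -0.67 on the log2 scale. Gjb6 was read at 912 CPM in KO and 710 CPM in WT, a ratio of 1.29 (1.26 to 1.31), or 0.36 on the log2 scale. Scaled by the class total, the ratio of Kcnj16 was 0.813 (0.769 to 0.859). Slc4a4 had a ratio of 0.811 (0.80 to 0.822) and Dtna one of 0.830 (0.814 to 0.846). Aqp4 was at 0.911 (0.893 to 0.930), Gja1 at 0.938 (0.928 to 0.948) and Atp1b2 at 0.973 (0.959 to 0.986).

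Counted by sign under class totals, 7 of the 8 genes were lower in KO and 1 was higher, against 4 lower under trimmed means and 5 under the median of ratios. Of all 12455 genes with at least 100 UMIs in these cells, 61.3% were lower under class totals and 38.7% were higher. The median log2 ratio was -0.20 for the 8 genes and -0.11 for all genes. Scaling by trimmed means moved all log2 ratios up by 0.17 and scaling by the median of ratios by 0.11. Aqp4, Gja1 and Atp1b2 became higher in KO under trimmed means (0.036, 0.078 and 0.13 on the log2 scale), and Gja1 and Atp1b2 did so under the median of ratios (0.021 and 0.074). Under both scalings Kcnj10, Kcnj16, Slc4a4 and Dtna remained lower and Gjb6 higher. Past a 1.5-fold difference lay 1 of the 8 genes, Kcnj10, against 7.44% of all genes lower and 1.78% higher. From the lowest ratio, Kcnj10 had rank 602 of 12455 genes, and from the highest, Gjb6 had rank 1092. The Kcnj10 log2 ratio was -0.50 under trimmed means and -0.55 under the median of ratios, which is within 1.5-fold.

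**Figure D2:**
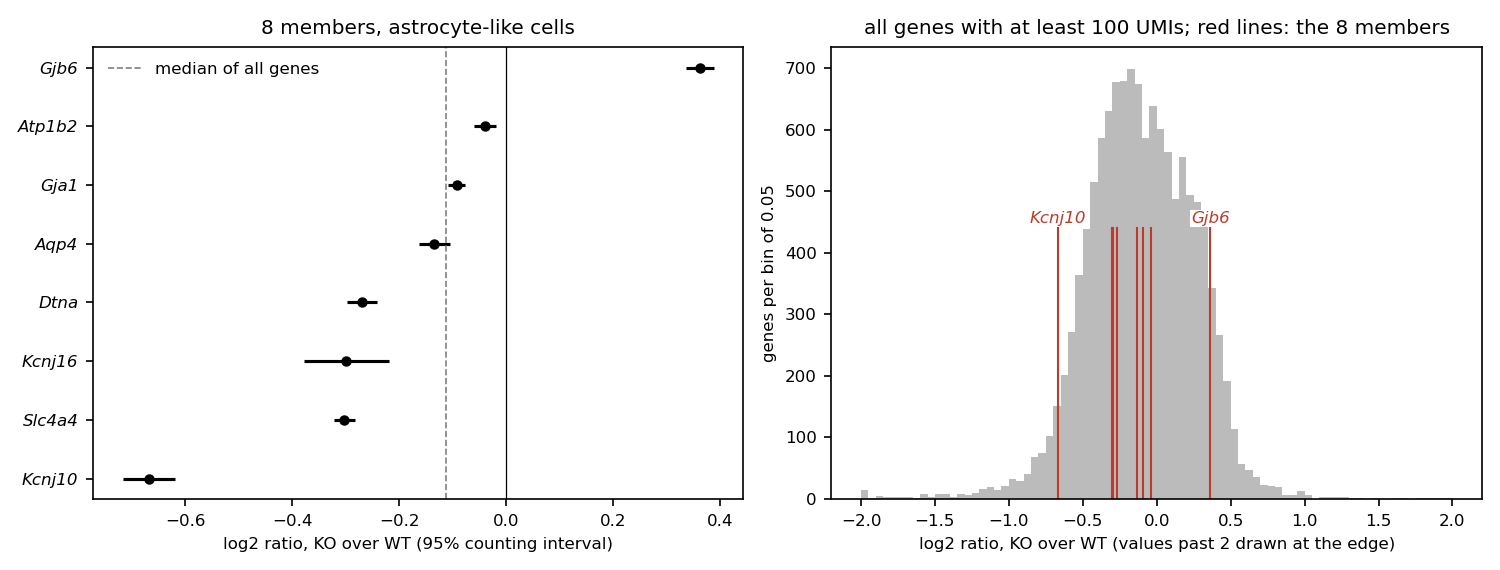
Left, log2 ratio of KO over WT levels of the 8 genes in astrocyte-like cells, scaled by class totals, with 95% counting intervals and a dashed line at the median of all genes (-0.11); right, the same ratio for all genes with at least 100 UMIs, as a histogram with red lines at the 8 genes. Kcnj10 (-0.67, rank 602 of 12455 from the lowest) and Gjb6 (0.36, rank 1092 from the highest) lie on opposite sides of the all-gene median. The other 6 lie between -0.30 and -0.04, of which Aqp4, Gja1 and Atp1b2 turn positive under trimmed means.

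The number of Gjb6 UMIs for each Kcnj10 UMI, which no scaling can change, was 5.23 in KO (5.09 to 5.37) and 2.56 in WT (2.49 to 2.63). These are the genes with the highest and lowest of the 8 ratios, so a gap between the libraries follows from the choice. Genes of like transcript length had a median log2 ratio of 0.13 for Gjb6 and -0.30 for Kcnj10. That length trend, described below, is not removed here. Summed over the 8 genes the level was 7175 CPM in KO and 7758 CPM in WT.

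Within the astrocyte-like class, cells were split by mitochondrial share (under 5%, 5 to 10% and 10 to 20%), by depth (under 5000, 5000 to 12000 and at least 12000 UMIs), by whether Gfap, the filament gene of reactive astrocytes, was seen, and by the 5 clusters that held most of them, which were made without the 8 genes. The libraries differed in this make-up: 54.4% of KO but 22.5% of WT astrocyte-like cells had 5000 to 12000 UMIs, and cluster 0, led by Crym, Gfap and Mt1, held 36.5% of KO and 11.1% of WT cells. Kcnj10 was lower in KO in 13 of the 13 groups of cells, with log2 ratios between -0.93 and -0.48, and Gjb6 was higher in 13 of 13, between 0.16 and 0.49. Kcnj16 was lower in 12, Aqp4 and Slc4a4 in 11, Dtna in 10, and Gja1 and Atp1b2 in 9 of the 13, scaled by the total of each group. The groups overlap, since each cell is in several of them.

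**Figure D3:**
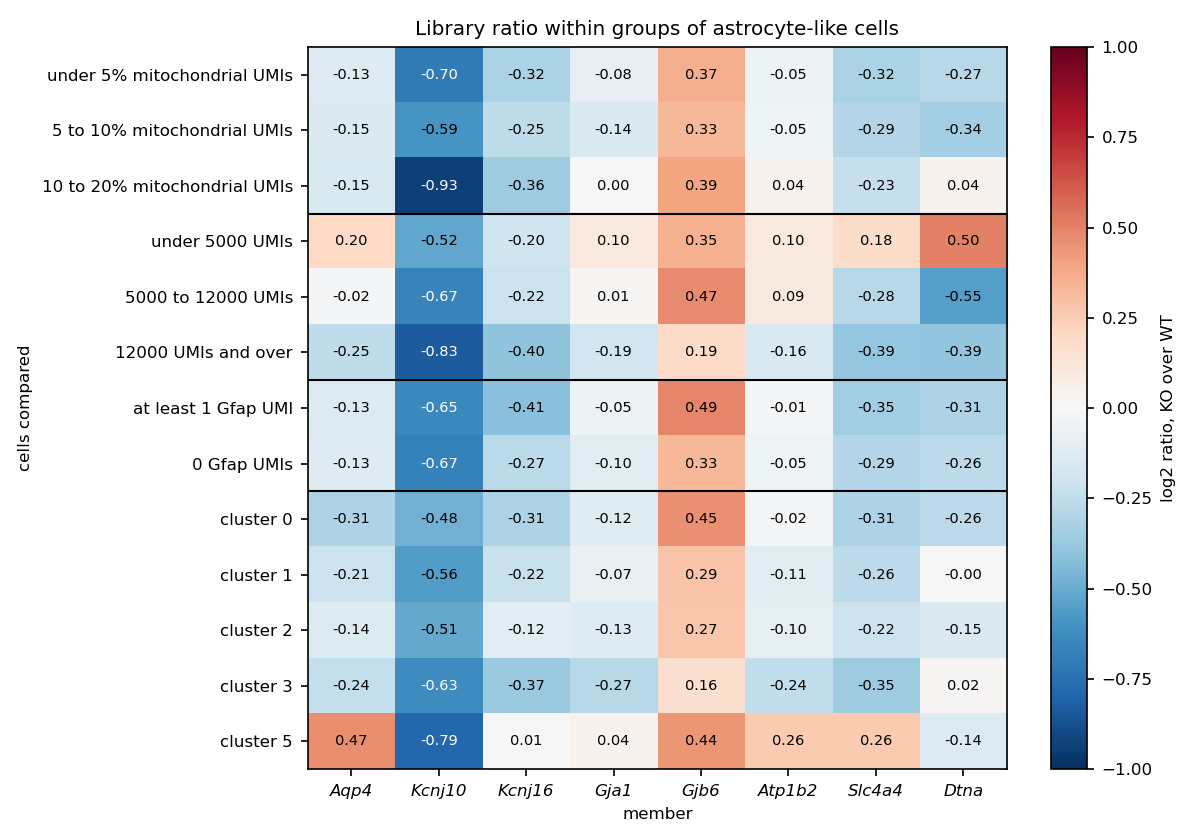
Log2 ratio of KO over WT levels, each scaled by the total of its group, for the 8 genes (columns) in 13 groups of astrocyte-like cells (rows: mitochondrial share, depth, Gfap and cluster). The Kcnj10 column is negative and the Gjb6 column positive in every row, the Dtna column runs from -0.55 to 0.50, and the Aqp4, Gja1 and Atp1b2 columns, which turn positive under trimmed means, change sign between rows.

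Dtna depended on which cells were compared, and so did other genes of the set. In cells under 5000 UMIs Dtna had 928 CPM in KO and 655 CPM in WT, a ratio of 1.42 (1.33 to 1.51). Aqp4 (1.15), Slc4a4 (1.14), Gja1 (1.07) and Atp1b2 (1.07) were also higher in KO in these cells, beyond counting error. Gjb6 (1.28) stayed higher there and Kcnj10 (0.696) lower, and Kcnj16 was at 0.870 (0.677 to 1.12). Median depth in those cells was 2621 UMIs in KO and 1481 UMIs in WT, so it was not matched. In cells of 5000 to 12000 UMIs Dtna had 587 CPM in KO and 858 CPM in WT. Cells of 10 to 20% mitochondrial UMIs had 1052 CPM in KO and 1024 CPM in WT, against 544 CPM in KO and 658 CPM in WT cells under 5%. The level in the high-mitochondrial cells was 1.93 times that in the low-mitochondrial cells in KO (1.84 to 2.03) and 1.56 times in WT (1.47 to 1.65). Gja1 ran the other way along the same split, at 0.608 times in KO (0.584 to 0.633) and 0.573 times in WT (0.547 to 0.600), and Aqp4 at 0.713 times in KO and 0.725 times in WT. By cluster, Dtna was highest in cluster 3, with 1141 CPM in KO and 1129 CPM in WT, and lowest in cluster 5, with 241 CPM in KO and 265 CPM in WT. Cluster 3 was led by Syne1 and had a median mitochondrial share of 10.1%. It held 738 KO and 459 WT astrocyte-like cells, and cluster 5 held 314 KO and 456 WT. The Dtna ratio was 1.01 (0.961 to 1.06) in cluster 3 and 0.910 (0.739 to 1.12) in cluster 5. Other genes were higher in KO in cluster 5, with ratios of 1.38 for Aqp4, 1.36 for Gjb6, 1.20 for Slc4a4 and 1.20 for Atp1b2. Gja1 (1.03) and Kcnj16 (1.00) were near WT there and Kcnj10 (0.580) was lower. The part of this cluster make-up in the Dtna ratio under 5000 UMIs was not tested.

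Aqp4 was higher in astrocyte-like cells with a Gfap UMI than in those without, in both libraries. The levels were 723 CPM in Gfap-positive and 570 CPM in Gfap-negative KO cells, and 793 CPM in Gfap-positive and 623 CPM in Gfap-negative WT cells. The ratios were 1.27 in KO (1.23 to 1.31) and 1.27 in WT (1.23 to 1.32). Kcnj10 differed little along this split, with ratios of 0.989 in KO (0.928 to 1.05) and 0.970 in WT (0.914 to 1.03). Dtna was at 0.877 in KO and 0.906 in WT, and Gjb6 at 0.980 in KO and 0.881 in WT. Median depth was 10598.5 UMIs in Gfap-positive and 8412 UMIs in Gfap-negative KO cells, and 14672 UMIs in Gfap-positive and 8133 UMIs in Gfap-negative WT cells, and was not matched in this split.

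Equal depth was made by thinning cells to 3000 UMIs each, which kept 3625 KO and 1905 WT astrocyte-like cells and left out 666 KO and 786 WT cells that were shallower. At that depth Kcnj10 was seen in 37.4% of KO cells (35.8 to 39.0) and 50.9% of WT cells (48.7 to 53.2). Before thinning the shares were 63.5% in KO and 66.9% in WT. Gjb6 was seen in 88.4% of KO and 80.1% of WT cells, and before thinning in 91.4% of KO and 80.0% of WT cells. Neuroblast-like cells thinned in the same way, a type not known for these genes, showed Kcnj10 in 3.19% of KO and 1.03% of WT cells and Gjb6 in 2.90% of KO and 6.15% of WT cells. The shares of the other 6 genes differed by less at equal depth. For 3 of them there was little room to differ. Gja1 was seen in 97.8% of KO and 96.2% of WT cells, Atp1b2 in 94.1% and 93.2%, and Slc4a4 in 95.1% and 95.9%. By level at equal depth the log2 ratio was -0.70 for Kcnj10 and 0.41 for Gjb6. It was -0.32 for Dtna, -0.30 for Slc4a4, -0.29 for Kcnj16, -0.085 for Aqp4, -0.056 for Gja1 and 0.024 for Atp1b2. Dtna was seen in 79.5% of KO and 83.8% of WT cells, Kcnj16 in 18.6% of KO and 21.6% of WT cells, and Aqp4 in 78.8% of KO and 78.2% of WT cells.

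**Figure D4:**
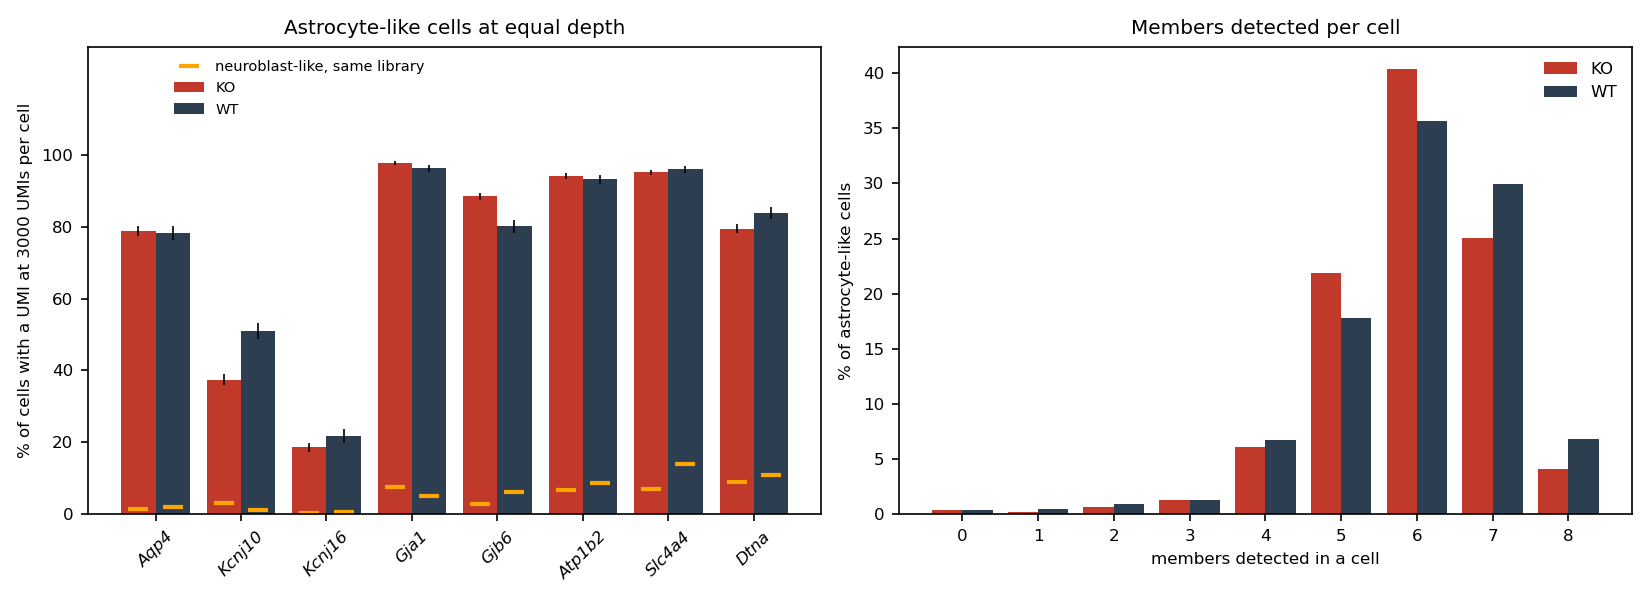
Left, percent of astrocyte-like cells with a UMI of each gene after thinning to 3000 UMIs per cell, KO red and WT dark blue, with exact 95% binomial intervals and orange marks at the share in neuroblast-like cells of the same library; right, percent of the same cells by how many of the 8 genes they contained. Kcnj10 was seen in 37.4% of KO and 50.9% of WT cells, Gjb6 in 88.4% of KO and 80.1% of WT cells, and the commonest number of genes per cell was 6 in both libraries.

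Most astrocyte-like cells carried most of the set. At equal depth the median cell held 6 of the 8 genes in both libraries, and all 8 were seen together in 4.11% of KO and 6.77% of WT cells. Over the 28 pairs of genes, correlations across cells at equal depth ran from -0.07 to 0.26 in KO and from -0.11 to 0.34 in WT, and the lowest was between Gja1 and Dtna in both. Such low values in sparse counts are not a finding about any pair.

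Library ratios of all genes moved with transcript length. Over 12452 genes with a length, Spearman's rho between the log2 ratio and the longest annotated transcript was -0.56, and the median log2 ratio was 0.31 among the shortest and -0.44 among the longest of 20 equal bins. Measured by the longest annotated transcript, Gjb6 is the shortest of the 8 genes with 2105 bases and Slc4a4 the longest with 7931 bases. With the median of its length bin taken off, Kcnj10 (5407 bases) was at -0.37 and Gjb6 at 0.23 on the log2 scale. Kcnj16 was at -0.13 after this step, while Aqp4, Gja1, Atp1b2, Slc4a4 and Dtna lay between 0.07 and 0.14. The part that length has in the ratios of the other genes was not tested further.

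**Figure D5:**
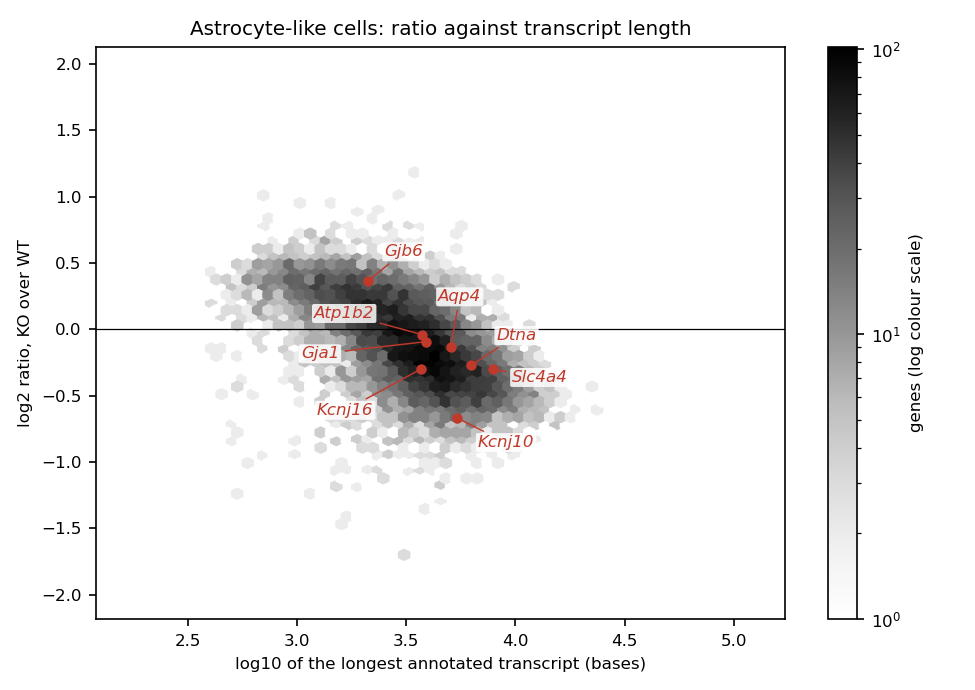
Log2 ratio of KO over WT levels in astrocyte-like cells against the log10 length of the longest annotated transcript, for all genes (grey, darker where more genes fall) and the 8 genes (red). The cloud slopes down, and Kcnj10 lies below and Gjb6 above the middle of the cloud at their lengths, by -0.37 and 0.23.

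Markers of other cell types were also read in the astrocyte-like class. Each list of 8 summed to between 1.71 and 133 CPM in KO and between 2.06 and 152 CPM in WT, lowest for border macrophages and highest for erythroid cells in KO and neuroblasts in WT. The hemoglobin gene Hbb-bs, which was on no list, had 7057 CPM in KO and 8010 CPM in WT. The 8 oligodendrocyte markers summed to 82.6 CPM in KO and 147 CPM in WT astrocyte-like cells, with 8 of 8 lower in KO and none at 0. That is 0.540% in KO and 1.07% in WT of their level in oligodendrocyte-like cells, and the same share of the oligodendrocyte-like Kcnj10 level would be 1.42 CPM in KO and 3.76 CPM in WT, out of 174 CPM in KO and 277 CPM in WT. The 8 fibroblast markers summed to 92.0 CPM in KO and 61.1 CPM in WT, with 6 of 8 higher in KO. That is 0.446% in KO and 0.390% in WT of their level in fibroblast-like cells, and the same share of the fibroblast-like Gjb6 level would be 3.09 CPM in KO and 2.82 CPM in WT, out of 912 CPM in KO and 710 CPM in WT. The metallothionein gene Mt1, a stress and metal response gene, had 8506 CPM in KO and 3686 CPM in WT astrocyte-like cells. Typing asks for a lead of 2 markers over the next type, which itself keeps the markers of other types low in this class. The shares given for the oligodendrocyte and fibroblast markers may therefore be too low. The part of oligodendrocyte RNA, fibroblast RNA, Mt1 and Hbb-bs in the ratios was not tested.

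Oligodendrocyte-like cells gave a second reading of Kcnj10, from other cells of the same libraries. The level was 264 CPM in KO and 350 CPM in WT, a ratio of 0.753 (0.713 to 0.794) or -0.41 on the log2 scale, where 59.0% of 9163 genes were lower in KO, 4.39% were past 1.5-fold lower and the median of all genes was -0.06. At 3000 UMIs per cell Kcnj10 was seen in 52.6% of KO (48.9 to 56.3) and 64.9% of WT (60.7 to 68.8) oligodendrocyte-like cells. The trend with transcript length was read in astrocyte-like cells only, where the length bin of Kcnj10 had a median log2 ratio of -0.30. The part of length in the ratios of oligodendrocyte-like cells was not tested. Dtna, the other gene of the 8 with over 100 CPM there, had a ratio of 0.902 (0.823 to 0.988). In ependymal-like cells the Kcnj10 ratio was 0.950 (0.584 to 1.55), an interval that holds both the astrocyte-like value and 1.

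Gjb6 did not repeat its astrocyte-like ratio in fibroblast-like cells, where it was 0.956 (0.839 to 1.09), and these counting intervals did not overlap. Single fibroblast-like cells held up to 44 of the 543 Gjb6 UMIs in KO and 48 of the 397 in WT. The intervals do not cover such spread between cells. Gja1 was at 0.589 (0.536 to 0.648) in the same cells and Slc4a4 at 0.665 (0.523 to 0.846). In that class 53.2% of 2302 genes were lower in KO and 8.30% were past 1.5-fold lower. Atp1b2 in pericyte-like cells had a ratio of 1.04 (0.794 to 1.38), where the median log2 ratio of all 361 genes was 0.19.

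Other genes of the same systems were read from 5 lists. Their ratios are given without removal of the transcript-length trend, and the part of length in them was not tested. Of 89 genes listed, 65 had at least 100 UMIs in astrocyte-like cells, of which 42 were lower and 23 higher in KO, 9 past 1.5-fold lower and 1 past 1.5-fold higher. The share lower in KO was 64.6% of the listed genes and 61.3% of all genes. Under trimmed means the split was 36 lower and 29 higher, or 55.4% lower against 43.9% of all genes. Under the median of ratios it was 37 lower and 28 higher, or 56.9% lower against 50% of all genes. Past 1.5-fold lower were 13.8% of the listed genes and 7.44% of all genes under class totals. Under trimmed means 3 listed genes were past 1.5-fold each way, and 4.62% of the listed and 3.26% of all genes were past it on the lower side. Under the median of ratios 5 listed genes were past 1.5-fold lower and 2 higher, and the lower shares were 7.69% of the listed and 4.15% of all genes.

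Of the scaffold and endfoot list, 13 of 18 measured genes were lower and 5 higher under class totals, and 11 and 7 under either other scaling. The share lower was 72.2% under class totals, against 61.3% of all genes. It was 61.1% under either other scaling, against 43.9% of all genes under trimmed means and 50% under the median of ratios. Dmd, which codes for dystrophin, was at 262 CPM in KO and 382 CPM in WT (ratio 0.685), and its relative Utrn at 43.1 CPM in KO and 68.4 CPM in WT (0.630). Dtnb, which codes for beta-dystrobrevin, was at 11.8 CPM in KO and 17.4 CPM in WT (0.678), and the laminin chain gene Lamc1 at 8.22 CPM in KO and 13.3 CPM in WT (0.619). Gpr37l1, an astrocyte receptor that also served as an astrocyte marker, had 2113 CPM in KO and 1810 CPM in WT. The adhesion gene Hepacam had 532 CPM in KO and 532 CPM in WT. Its membrane partner Mlc1 had 331 CPM in KO and 303 CPM in WT.

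Of the pump and potassium list, 13 of 21 were lower and 8 higher under class totals, and 11 and 10 under either other scaling. The share lower was 61.9% under class totals, near the 61.3% of all genes. It was 52.4% under either other scaling, against 43.9% of all genes under trimmed means and 50% under the median of ratios. Kcnn3, a calcium-gated potassium channel, was at 44.9 CPM in KO and 75.5 CPM in WT (ratio 0.594), and Slc12a2, the sodium, potassium and chloride cotransporter, at 21.8 CPM in KO and 34.0 CPM in WT (0.640). Kcnj13, another inward rectifier, was at 1.38 CPM in KO and 2.34 CPM in WT. Nkain4, which codes for a protein that binds the pump, was the 1 listed gene past 1.5-fold higher, at 538 CPM in KO and 348 CPM in WT (1.55). The 2-pore channel gene Kcnk1 had 783 CPM in KO and 670 CPM in WT.

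Further connexin genes were scarce in these cells. Gjc3 had 3.91 CPM in KO and 10.4 CPM in WT, and Gjb1 had 1.30 CPM in KO and 2.14 CPM in WT. Those are connexins of oligodendrocytes, and like the oligodendrocyte markers given above they were lower in KO. The part of oligodendrocyte RNA in these values was not tested. Gjb2, an astrocyte and meningeal connexin, had 16.8 CPM in KO and 15.1 CPM in WT. The junction scaffold gene Tjp1, whose protein binds connexin 43, had 130 CPM in KO and 188 CPM in WT (ratio 0.693).

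Of the bicarbonate and pH list, 7 of 11 genes were lower and 4 higher, none past 1.5-fold, and 6 and 5 under trimmed means. The share lower was 63.6%, near the 61.3% of all genes, and under trimmed means 54.55% against 43.9% of all genes. Slc4a7, a relative of Slc4a4, had 23.0 CPM in KO and 34.4 CPM in WT (ratio 0.669), and the carbonic anhydrase gene Car2 had 523 CPM in KO and 485 CPM in WT. Of the aquaporin and volume list, 4 of 9 were lower and 5 higher, and 3 and 6 under either other scaling. The share lower was 44.4% under class totals, against 61.3% of all genes. It was 33.3% under either other scaling, against 43.9% of all genes under trimmed means and 50% under the median of ratios. Lrrc8a, the required subunit of volume-regulated anion channels, had 120 CPM in KO and 90.1 CPM in WT (1.33), Aqp11 had 28.6 CPM in KO and 21.9 CPM in WT (1.31), and Lrrc8b had 4.64 CPM in KO and 7.01 CPM in WT (0.662). Aqp9 had 18.5 CPM in KO and 21.9 CPM in WT, and of the listed aquaporin genes none had over 100 CPM.

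Likeness of profile was measured as Pearson's r of log2(CPM + 10) over 14 points, which are 7 cell types with at least 50 cells in each library, among 7810 genes. The points share libraries and 2 of the 14 are astrocyte-like, so r mostly records astrocyte restriction and is given as a description. Closest to Aqp4 were Slc25a18, Igfbp2 and Hapln1 (r of 0.996 to 0.994), to Kcnj16 Gm6145, Klhdc7a and Nwd1, to Gjb6 Timp4, Etnppl and Cyp4f15, to Atp1b2 Acsbg1, Dkk3 and Nim1k, and to Slc4a4 Fzd1, Gli3 and Fgfr1. Clu and Mfge8 were among the 3 closest to Gja1, and Npas3 and Fam184a among the 3 closest to Dtna. Kcnj10 was most like Daam2, Fgf1 and Clmn (0.989 to 0.987). Among the 8 genes it was nearest to Dtna (0.860) and least like Gja1 (0.495), the lowest r of any pair of the 8.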

How the data were processed

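Single-cell libraries of KO and WT mouse cortex were analysed from the deposited UMI counts, raw whole numbers per gene and barcode without normalization, which per the file headers come from Cell Ranger 4.0.0. Depth was 75473717 UMIs in KO and 57166105 UMIs in WT. The submitters' processing notes also name R 4.0.3, Seurat 3.0 and the mm10 build.

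Barcodes with under 500 genes or over 20% mitochondrial UMIs were dropped, in all 18.5% of KO and 27.9% of WT barcodes. The automatic doublet threshold of Scrublet (scanpy 1.11.5) marked 164 KO and 0 WT cells and was taken as failed, so the highest scores were removed at 0.8% per 1000 barcodes. A cell was typed when at least 3 of a type's 8 markers were seen, with a lead of 2 over the next type, which left 6.16% of KO and 12.1% of WT cells untyped. Both the doublet rate and this rule were chosen with the data in view, and the types are rebuilt names, not the authors'.

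UMIs were summed per type and library. Levels have exact Poisson intervals, shares of cells exact Clopper-Pearson intervals, and KO over WT ratios exact binomial intervals conditional on the summed count. The ratio intervals alone were checked on simulated Poisson counts, the model that they assume, so the check does not cover variation between cells. Genes needed 100 UMIs in a type to be ranked. No test was possible with 1 library per genotype. Clusters came from 2000 variable genes (30 components, 15 neighbours, Leiden resolution 1, leidenalg 0.10.2, scikit-learn 1.9.0). GENCODE M21 matched 99.8% of the gene identifiers. Values were computed in Python 3.11.15 with scipy 1.17.1, pandas 2.3.3 and numpy 2.4.6.

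The 8 genes, the marker lists and the pathway lists were chosen with earlier results of these data known. Beside the 8, the 3 genes most like each were named, and from each pathway list the 3 most abundant and up to 4 with the largest ratios. Some genes that these rules picked are not reported here. Alternatives covered cell filters, doublets, the gate, scaling, cell weights, depth, transcript length and mitochondrial share. Matching the mix of depth ranges or of clusters was added after the data were seen.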

Additional observations from a re-analysis of the deposited data

How the results depend on the processing

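No paired analysis was possible because there was 1 library per genotype. Over 15 alternative settings Kcnj10 was lower in KO in 15 (log2 ratio -0.93 to -0.37), Kcnj16 in 15 (-0.36 to -0.13) and Gjb6 higher in 15 (0.23 to 0.53), while Slc4a4 was lower in 14, Dtna in 13, Aqp4 in 12, Gja1 in 10 and Atp1b2 in 8. The median log2 ratio of the 8 genes (-0.20) was -0.23 under the stricter cell filter (at least 1000 genes, at most 10% mitochondrial UMIs), -0.031 under trimmed means, -0.088 under the median of ratios, 0.010 with each cell weighed the same, 0.075 with the length trend removed, -0.076 in cells of 10 to 20% mitochondrial UMIs, -0.10 at a matched mix of depth ranges and -0.15 at a matched mix of clusters. The number of the 8 genes lower in KO (7) was 4 under trimmed means and 4 with each cell weighed the same. It was 2 with the length trend removed and 4 in cells of 10 to 20% mitochondrial UMIs. Of all genes, 61.3% were lower in the main setting, 43.9% under trimmed means and 56.4% in cells of 10 to 20% mitochondrial UMIs. Taking off the bin median splits all genes about evenly by construction, and the share with equal cell weights was not computed. The median log2 fold of astrocyte-like over other cells (4.95 in KO and 4.80 in WT) was 5.11 in KO and 5.04 in WT without the cell filter, 5.08 in KO and 5.0 in WT under the stricter filter, 5.27 in KO and 5.36 in WT under a stricter gate, and 4.12 in KO and 4.23 in WT with clusters in place of the gate. The cause of these moves was not tested.

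Of all genes in astrocyte-like cells, 927 were past 1.5-fold lower in KO and 222 higher. The numbers were 1955 and 510 at a minimum of 20 UMIs, 3346 and 1046 without a minimum, 406 and 736 under trimmed means, and 517 and 472 under the median of ratios, lower first in each pair. Depth limits the small types: fibroblast-like, pericyte-like and ependymal-like cells rest on 70, 58 and 21 KO and 30, 26 and 22 WT cells, and no interval here covers variation between mice.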
